A study of Homo sapiens with 6 samples.

Results

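FLI1, ETS1 and ERG of the ETS family, and SPI1, TAL1, LMO2, IKZF1, RUNX1, RUNX3 and GATA2, are 10 genes for transcription factors and a cofactor of blood and endothelial cells, out of 20037 protein-coding genes. They were chosen partly on peak values of these same lists, among them a wide EZH2 domain at FLI1, so every value below is a description and none is an independent test of the choice. For each gene, the peaks overlapping the gene plus 5 kb on both sides were taken, and for FLI1 and ETS1 also those along chromosome 11 from 128.4 to 128.9 Mb (hg38). The gene windows held 50 EZH2 peaks and 75 H3K27me3 peaks in ZCCHC8-WT cells and 24 and 95 in ZCCHC8-KO cells.

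All libraries came from ACHN, an established human renal carcinoma line, either ZCCHC8-WT (titled Ctrl) or ZCCHC8-KO (titled sgZ8), with no drug or time course in the labels. ZCCHC8 is the scaffold of NEXT, the adaptor that passes short-lived nuclear transcripts to the exosome. The labels do not say whether the KO cells are a single clone or a pool, and peak lists cannot show the loss of ZCCHC8. The series asks how the NEXT complex bears on H3K27me3 levels. Formaldehyde-fixed, sonicated chromatin was precipitated for EZH2 or for H3K27me3, with 1 library per antibody and genotype, and an input library of each genotype served both of its lists, as the deposited names say. No difference has a replicate check, no test between genotypes was possible, and read depth was unknown (not given in the sources used here).

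Polycomb repressive complex PRC2 places methyl groups on lysine 27 of histone H3 through its catalytic subunit EZH2, and the trimethylated form, H3K27me3, marks genes kept silent in a lineage. PRC2 typically gathers at CpG-rich starts of developmental regulator genes, from where the mark spreads over neighbouring chromatin. Transcription factors of blood and endothelium are classic targets of it in cells of other lineages. FLI1 and ERG drive endothelial and megakaryocyte programmes, SPI1 (PU.1) the myeloid and B-cell programmes, TAL1, LMO2 and GATA2 act together in blood stem cells and red-cell precursors, RUNX1 and RUNX3 bind DNA with the partner CBFB, and IKZF1 (Ikaros) directs lymphocyte development.

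The sequences upstream of 4 members are shown because their base composition can be set beside the peaks nearest to them. RefSeq (GRCh38.p14) sequences were listed for 14 starts of 6 members (ERG, TAL1, IKZF1, RUNX1, RUNX3 and GATA2) and for none of FLI1, ETS1, SPI1 and LMO2. Each line gives the 250 bases before a start, 5′ to 3′ on the gene's own strand, with CG dinucleotides in capitals. GATA2 lies at chr3:128493202-128493451 (minus strand), TAL1 at chr1:47232336-47232585 (minus), IKZF1 at chr7:50304466-50304715 (plus) and RUNX1 at chr21:34888700-34888949 (minus).
GATA2: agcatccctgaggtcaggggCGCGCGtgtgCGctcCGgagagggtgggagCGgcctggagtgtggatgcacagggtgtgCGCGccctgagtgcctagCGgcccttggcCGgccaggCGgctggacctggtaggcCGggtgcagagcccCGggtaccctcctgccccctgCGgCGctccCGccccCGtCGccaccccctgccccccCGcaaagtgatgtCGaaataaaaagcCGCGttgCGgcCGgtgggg
TAL1: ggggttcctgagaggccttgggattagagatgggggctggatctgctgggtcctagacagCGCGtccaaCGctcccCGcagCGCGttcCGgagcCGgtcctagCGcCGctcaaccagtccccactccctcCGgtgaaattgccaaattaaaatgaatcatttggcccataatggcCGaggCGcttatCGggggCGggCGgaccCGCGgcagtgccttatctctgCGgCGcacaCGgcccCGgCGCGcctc
IKZF1: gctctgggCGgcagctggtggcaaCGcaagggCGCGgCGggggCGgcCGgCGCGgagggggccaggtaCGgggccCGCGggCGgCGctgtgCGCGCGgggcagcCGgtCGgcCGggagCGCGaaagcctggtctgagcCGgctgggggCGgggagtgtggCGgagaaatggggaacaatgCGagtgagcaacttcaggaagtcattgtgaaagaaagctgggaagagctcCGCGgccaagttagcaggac
RUNX1: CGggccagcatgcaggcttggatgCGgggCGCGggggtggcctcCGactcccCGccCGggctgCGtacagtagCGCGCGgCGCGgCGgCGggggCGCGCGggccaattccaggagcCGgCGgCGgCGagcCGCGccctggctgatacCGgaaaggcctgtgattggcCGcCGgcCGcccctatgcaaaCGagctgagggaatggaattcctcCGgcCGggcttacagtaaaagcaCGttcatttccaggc

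All 4 stretches were rich in CG. They held 24 (GATA2), 24 (TAL1), 28 (IKZF1) and 32 (RUNX1) CG dinucleotides, against a median of 11 over 34941 upstream stretches of the same length. The ratio of observed to expected CG was 0.726 for GATA2, 0.915 for TAL1, 0.989 for IKZF1 and 1.02 for RUNX1, with a median of 0.556 over all stretches. The peaks beside them differed. In WT, the nearest EZH2 peak lay 0.563 kb from the GATA2 start, 2.5 kb from the TAL1 start, 32.7 kb from the IKZF1 start and 98.4 kb from the RUNX1 start. The nearest WT H3K27me3 peak lay 19.1 kb from the GATA2 start, 1.27 kb from that of TAL1, 0.705 kb from that of IKZF1 and 151 kb from that of RUNX1. Among these 4, the RUNX1 start, with the highest CG ratio, lay farthest from a peak of either antibody, and the GATA2 start, with the lowest, lay nearest to EZH2. The 4 stretches were picked for display after their values were seen, and no relation is drawn from them.

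Motif letters were counted on both strands of the same 250 bases. GGAA, the core of ETS factor sites, occurred 0 times upstream of GATA2, 2 times for TAL1, 3 times for IKZF1 and 6 times for RUNX1, and 92.7% of all stretches held it. AGATAA, a form of the GATA site, occurred 1 time upstream of TAL1 and in none of the other 3 stretches shown, against 9.19% of all stretches. The E-box letters CANNTG, which read the same on both strands and can overlap the other motifs, were present for TAL1 (1) and IKZF1 (1) and in 61.8% of all stretches. These are letter matches only.

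FLI1, an ETS factor of megakaryocytes and endothelium, held the widest EZH2 domain among 25587 in the WT list when peaks less than 3 kb apart were stitched. This is the value the selection rests on. The domain ran over 22.8 kb, from -4.46 kb to 18.4 kb relative to the FLI1 gene start (128685132, the end where its transcription begins), and held 18 peaks that covered 39.5% of it. In the KO list the widest domain at FLI1 was 14.0 kb with 8 peaks, from -1.64 to 12.4 kb, and ranked 15 of 16189.

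**Figure D1:**
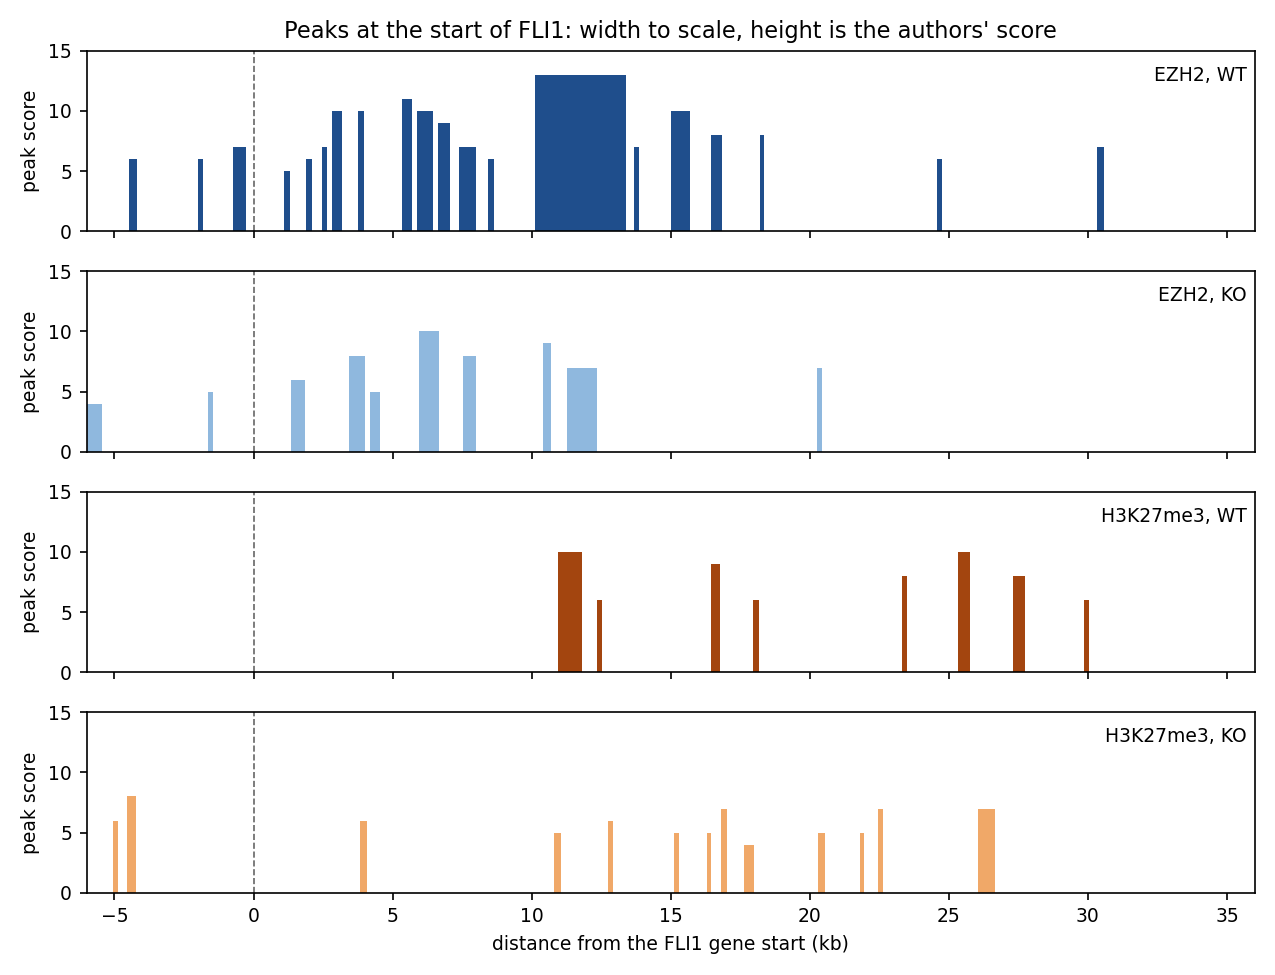
Peaks from 6 kb before to 36 kb after the FLI1 gene start (dashed line), with distance in kb on the x axis and the authors' score of each peak as height, 1 panel per list. EZH2 peaks crowd the first 20 kb in both genotypes, while the WT H3K27me3 list holds no peak in the first 10 kb.

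The single widest EZH2 peak of the whole WT list, 3256 bp with a score of 13, lay in this domain at chr11:128695260-128698515, starting 10.1 kb inside FLI1. The KO list had a pair of peaks there, of 287 bp and 1078 bp, with scores of 9 and 7. Scores are values of the authors with no stated meaning, used here to rank or filter peaks within a list and not to compare heights between lists. The 1078-bp peak ranked 87 by width among 19566 KO peaks.

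EZH2 at FLI1 sat at the start of the gene. Of its first 20 kb, 8067 bp (40.3%) were covered in WT and 3962 bp (19.8%) in KO, compared with 0.563% and 0.157% of the remaining 108 kb. The 20-kb boundary was drawn after the peaks were seen. SENCR, a long non-coding RNA gene that lies inside this stretch and is transcribed against FLI1, had 2026 bp of EZH2 peaks in WT and 891 bp in KO. LOC101929538, which overlaps the FLI1 start, had 909 bp and 621 bp, and peaks cannot be assigned to either of 2 overlapping genes.

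H3K27me3 at FLI1 was not gathered at the start of the gene. It covered 8.03% of the first 20 kb in WT and 7.93% in KO, and 6.62% and 6.39% of the rest. These averages were similar, but the peaks were unevenly spread within both stretches. No WT H3K27me3 peak and 1 KO peak lay in the first 10 kb, where EZH2 peaks covered 34.0% in WT and 26.0% in KO. The widest WT H3K27me3 domain at FLI1, 7.66 kb with 8 peaks, lay at the far end, from 122 to 129 kb after the start. In KO the widest one, 11.9 kb with 9 peaks, lay from 10.8 to 22.6 kb. It overlapped the end of the KO EZH2 domain, which reached 12.4 kb. Of the 21 WT EZH2 peaks in the FLI1 window, 3 (14.3%) overlapped a WT H3K27me3 peak, near the 14.0% of the whole list, and the median distance to the nearest one was 2.95 kb. Of the 9 KO EZH2 peaks, 2 (22.2%) overlapped a KO H3K27me3 peak, near the 19.0% of that list, and the median distance was 0.209 kb.

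Over the whole FLI1 window of 138 kb, EZH2 had 21 peaks covering 9626 bp in WT and 9 peaks covering 4300 bp in KO, a KO/WT ratio of 0.447. H3K27me3 had 28 peaks covering 9313 bp and 32 covering 9178 bp, a ratio of 0.986. The EZH2 length over FLI1 was thus shorter in KO while the H3K27me3 length was nearly equal. Over chromosome 11 these ratios were 0.67 and 0.944. Choosing FLI1 by its wide WT EZH2 domain favours a low EZH2 ratio, so nothing is read from this contrast. The WT lists were also cut to as many top-scoring peaks as the KO lists hold. The lengths were then 8320 and 4300 bp for EZH2 and 9061 and 9178 bp for H3K27me3. The H3K27me3 cut fell among WT peaks tied at a score of 6. Those at FLI1, ETS1, LMO2 and TAL1 were kept and those at IKZF1 and ERG dropped, so cut H3K27me3 lengths depend on tie order. Without peaks of score 6 or lower, the FLI1 length in WT was 7644 bp. With scores of 7 or more in both lists, the lengths were 8320 and 3279 bp for EZH2 and 7644 and 1623 bp for H3K27me3. That limit keeps 69.8% of all WT and 28.6% of all KO H3K27me3 peaks, so lower KO values are built into it.

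Part of the FLI1 peaks overlapped between the genotypes. Of 21 EZH2 peaks listed for WT in its window, 5 (23.8%, exact 95% Clopper-Pearson interval 8.22 to 47.2) overlapped a KO EZH2 peak, and the whole list gave 5.13% (4.89 to 5.38). For H3K27me3, 9 of 28 (32.1%, 15.9 to 52.4) did so, and 15.9% (15.6 to 16.1) of the list. EZH2 peaks at FLI1 were also wider than most and lay close together, which is why the gene was chosen. In KO they covered 18.1% of the WT domain. The part of width and of local density in this overlap was not tested, and nothing is read from the gap to the list. Intervals cover counting error only, and peaks of 1 gene are not replicates. Sharing between repeat libraries of 1 genotype is unknown here.

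**Figure D2:**
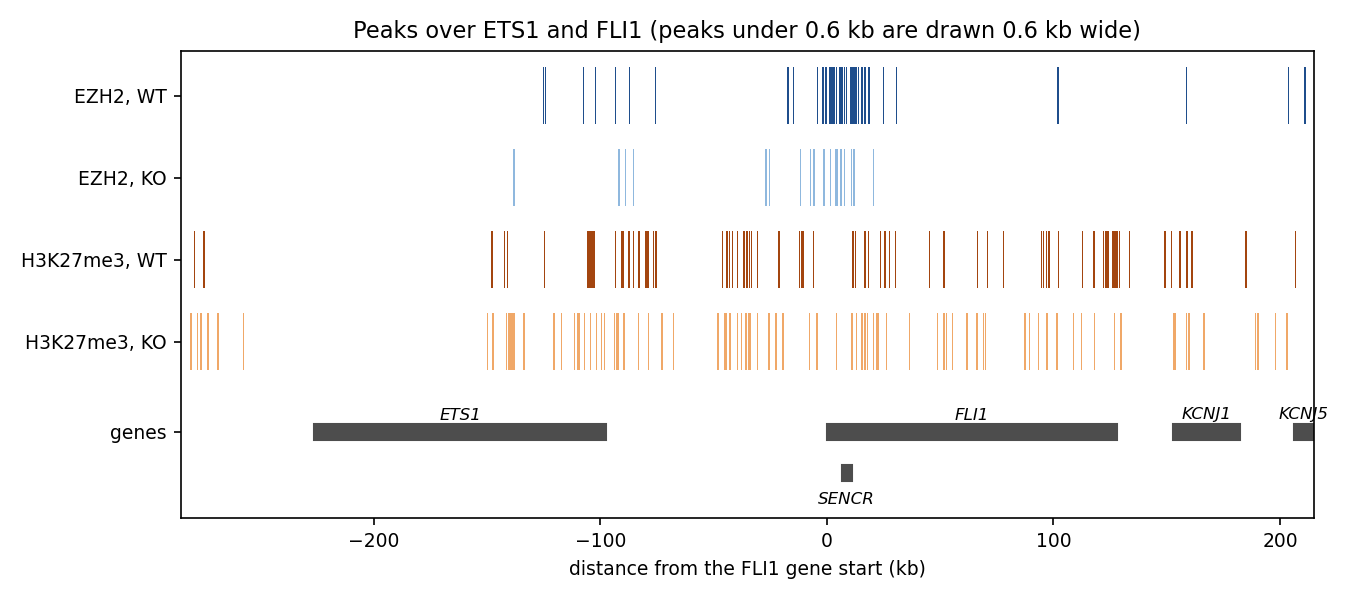
Peaks of the 4 lists along the chromosome 11 interval, with distance from the FLI1 gene start in kb on the x axis and genes as grey bars. EZH2 peaks cluster at the FLI1 start, whereas H3K27me3 peaks extend from the upper part of ETS1 across FLI1.

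Along the chromosome 11 interval of 500 kb, the EZH2 lists held 33 peaks (12305 bp) in WT and 18 (6504 bp) in KO, and the H3K27me3 lists 75 peaks (25157 bp) and 86 (30373 bp). Among the 5 stretches below, in, between and above the 2 genes, H3K27me3 covered the largest share between them. The 97.6 kb that separate ETS1 from FLI1 had 26 WT peaks covering 9.57% and 25 KO peaks covering 10.9%, with 8 and 9 EZH2 peaks covering 2146 and 2169 bp. In the 86.7 kb above FLI1, coverage by H3K27me3 was 3.62% and 3.66%, and EZH2 had 3 WT peaks and no KO peak. LOC105369568, a non-coding gene between ETS1 and FLI1, held 9 and 4 H3K27me3 peaks and 2 and 1 EZH2 peaks. KCNJ1, the ROMK potassium channel of the kidney tubule, had 879 bp and 1874 bp of H3K27me3 in the gene, 174 bp of EZH2 in WT and none in KO. KCNJ5, a heart and adrenal potassium channel gene that reaches past the interval, had 1 WT and no KO H3K27me3 peak, and EZH2 lengths of 309 bp and 171 bp. LOC124902789 below ETS1 had 2 KO H3K27me3 peaks only. That KO peak of 171 bp is also the only one listed at KCNJ5-AS1, and MIR6090, ETS1-AS1, LOC124902790 and LOC107984409 had no peak in any list.

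ETS1, the neighbouring ETS factor of lymphocytes and endothelium, differed from FLI1. In its window, H3K27me3 length was 3527 bp in WT (10 peaks) and 7452 bp in KO (19 peaks), a ratio of 2.11, while that ratio was 0.944 over chromosome 11. All of the in-gene peaks, 9 in WT and 17 in KO, lay in the upper 60 kb of the gene, the side where ETS1 transcription begins, and the other 68.8 kb had no peak of either antibody in either genotype. The 60-kb boundary was drawn after the peaks were seen, and LOC105369565 overlaps part of this stretch (2264 bp of H3K27me3 in WT and 3445 bp in KO, with 381 bp and none of EZH2).

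EZH2 at ETS1 consisted of narrow peaks, 5 in WT (1093 bp, widest 296 bp) and 1 in KO (203 bp). With the WT list cut to as many top-scoring peaks as the KO list holds, the lengths were 206 and 203 bp. The H3K27me3 lengths under that setting were again 3527 and 7452 bp, with the tied WT peaks of score 6 kept at ETS1. With scores of 7 or more in both lists, they were 2419 and 3972 bp.

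ERG, the ETS factor closest to FLI1 in family and in endothelial role, had almost no EZH2: no WT peak and 1 KO peak of 171 bp in a window of 305 kb. H3K27me3 length at ERG was 1771 bp in WT (7 peaks) and 6079 bp in KO (20 peaks), a ratio of 3.43, against 1.04 for chromosome 21. The KO peaks were scattered over the whole gene, with a widest peak of 617 bp and scores of at most 8. With the WT list cut to the size of the KO list, the lengths were 932 and 6079 bp, and with scores of 7 or more in both lists 932 and 2533 bp. The cut dropped the tied WT peaks of score 6 at ERG. The ERG start with the highest CG ratio (1.23, 44 CG dinucleotides) had a WT H3K27me3 peak at 1.81 kb and a KO peak at 2.69 kb.

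SPI1, the PU.1 gene, had a single WT EZH2 peak of 197 bp with a score of 6, and no KO peak. No H3K27me3 peak of either genotype lay in its window, and the nearest WT one was 534 kb from the EZH2 peak. The 4 chromosome 11 members therefore spanned the range from the widest EZH2 domain of the list (FLI1) to a single weak peak (SPI1).

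LMO2, the LIM-domain bridge of the TAL1 complex, had covered shares most like those of FLI1. EZH2 had 8 peaks covering 2929 bp in WT and 5 covering 1329 bp in KO, a ratio of 0.454, and H3K27me3 had 9 peaks (2516 bp) and 7 (2287 bp), a ratio of 0.909. Its main EZH2 domain in WT was 8.20 kb wide, with 6 peaks, ranked 96 of 25587, and held a peak of 1024 bp with a score of 15 at chr11:33866695-33867718, the highest score among the members' EZH2 peaks. The KO domain at the same place was 3.57 kb with 2 peaks. None of the 8 WT EZH2 peaks overlapped a WT H3K27me3 peak, with distances from 0.577 to 2.66 kb. The interval for 0 of 8 reaches 36.9%, and 14.0% of the whole list overlapped one, so this count does not set LMO2 apart. In KO, 1 of 5 overlapped.

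The likeness to FLI1 was measured over the 4 covered shares, as the distance between their square roots in percent. LMO2 was nearest of all protein-coding genes (0.347), with 6.73% and 3.06% EZH2 coverage and 5.78% and 5.26% H3K27me3 coverage in WT and KO, and FLI1 had 6.97%, 3.11%, 6.74% and 6.64%. CHAT (0.531), RFX4 (0.535), CD207 (0.548) and DNAJC5G (0.65) came next, with EZH2 coverage of 5.23 to 5.69% in WT and 2.52 to 3.73% in KO and H3K27me3 coverage of 4.29 to 5.59% and 5.06 to 8.44%. Those 4 points per gene come from the same 4 libraries for every gene.

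TAL1, the bHLH factor that founds blood development, had 4 EZH2 peaks covering 902 bp in WT and 2 covering 729 bp in KO, in a window of 26.0 kb. Its H3K27me3 consisted of 2 WT peaks (411 bp) and 1 KO peak (214 bp). With the WT list cut to the size of the KO list, the EZH2 lengths were 247 and 729 bp, the opposite order, so the direction at TAL1 depends on this setting.

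GATA2, the zinc finger factor of blood stem cells and mast cells, was the member with the largest share of its window under EZH2 peaks, 9.76% in WT (6 peaks, 2321 bp) and 6.88% in KO (3 peaks, 1635 bp). It ranked 76 and 111 of 20037 genes by that share, and 314 and 345 by covered length. Its window of 23.8 kb was the shortest of the 10. Not one H3K27me3 peak lay in its window in either genotype. The nearest WT one was 6.36 to 19.6 kb from its EZH2 peaks. Around the start whose upstream sequence is shown, 4 WT peaks and 2 KO peaks lay within 2 kb, on both sides of the start, the WT ones with scores of 11, 11, 13 and 9. Of the 6 WT EZH2 peaks, 2 overlapped a KO peak.

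**Figure D3:**
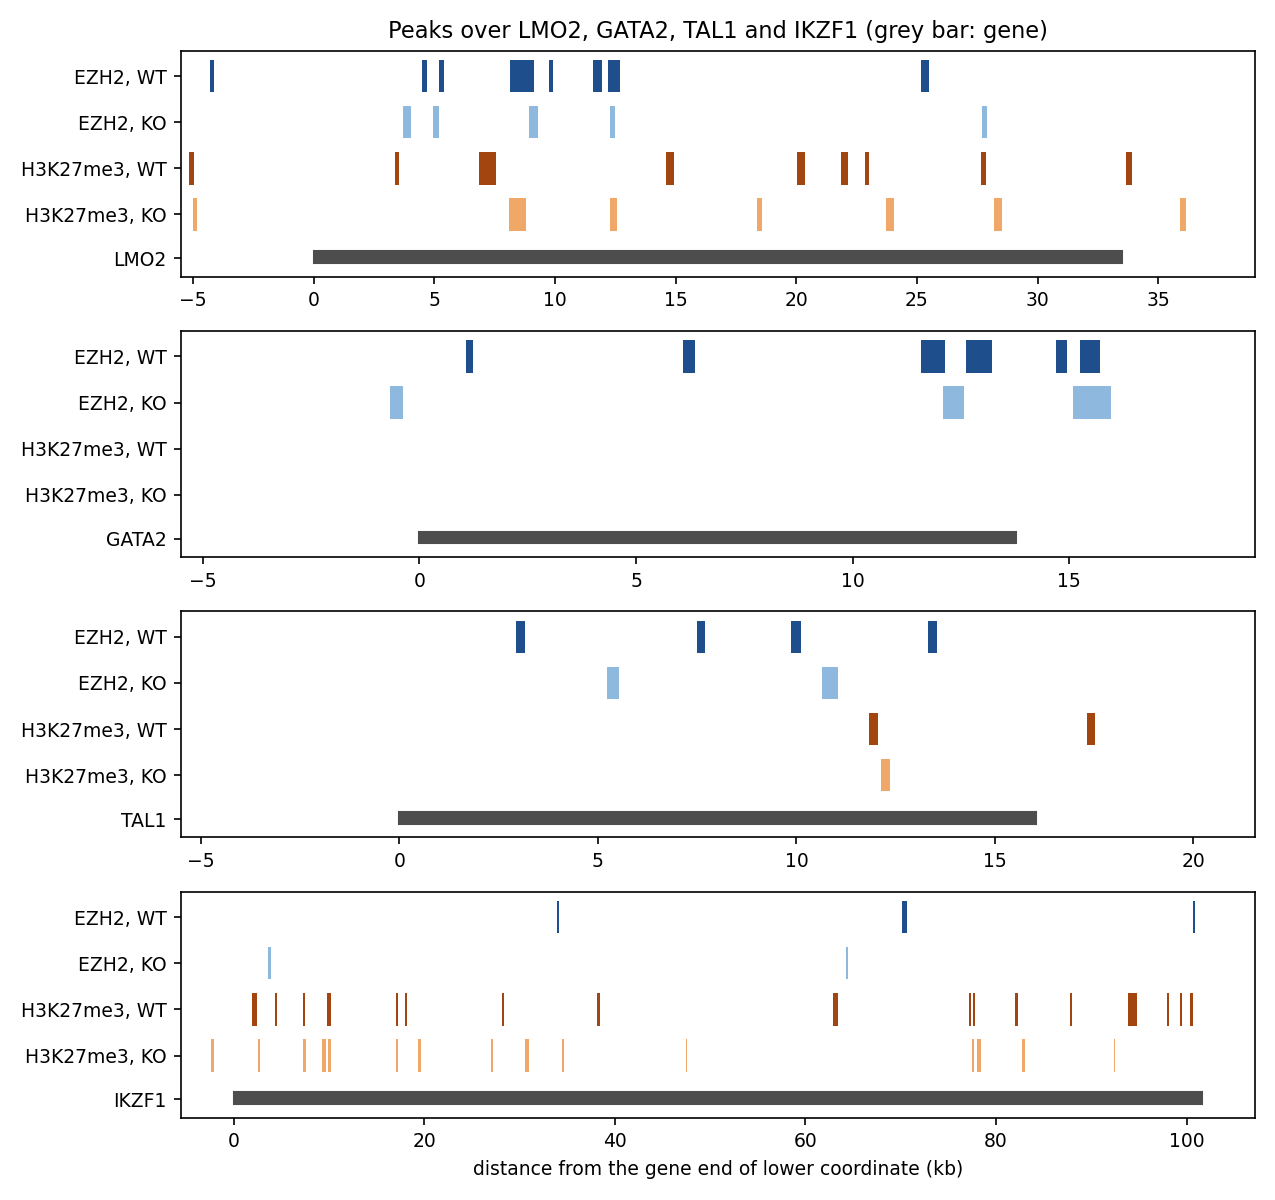
Peaks over LMO2, GATA2, TAL1 and IKZF1, with distance in kb from the lower-coordinate end of each gene on the x axis and 1 row per list. Both antibodies have peaks along LMO2, only EZH2 peaks appear at GATA2, and H3K27me3 peaks outnumber EZH2 peaks at IKZF1.

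IKZF1 showed the reverse of GATA2. H3K27me3 length was 5731 bp in WT (17 peaks) and 4545 bp in KO (15 peaks), with the mark near all 3 listed starts: the nearest WT peaks lay 0.705, 0.668 and 1.43 kb from them. EZH2 had 3 WT peaks (915 bp) and 2 KO peaks (475 bp). The KO/WT ratios at IKZF1 were 0.793 for H3K27me3 and 0.519 for EZH2, and those of chromosome 7, which carries it, 0.342 and 0.408. With the WT list cut to the size of the KO list, the H3K27me3 lengths were 4439 and 4545 bp. The cut dropped the tied WT peaks of score 6 at IKZF1, and with them kept the WT length is 5731 bp. Some H3K27me3 peaks had nearly the same limits in both lists. One ran from 50320473 to 50320727 in WT and to 50320732 in KO. Another ran from 50313313 in WT and 50313317 in KO to 50313714 in both.

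The RUNX genes were nearly bare. RUNX1, mutated or fused in many leukaemias, had 1 WT EZH2 peak of 254 bp and no other peak in a window of 272 kb, whose listed CG-rich start is shown above. RUNX3, the factor of cytotoxic T cells, had 1 EZH2 peak in each genotype (159 and 168 bp, at different places), 2 WT H3K27me3 peaks (431 bp) and 1 KO peak (175 bp). Its listed starts had CG ratios of 0.868 and 0.459.

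**Figure D4:**
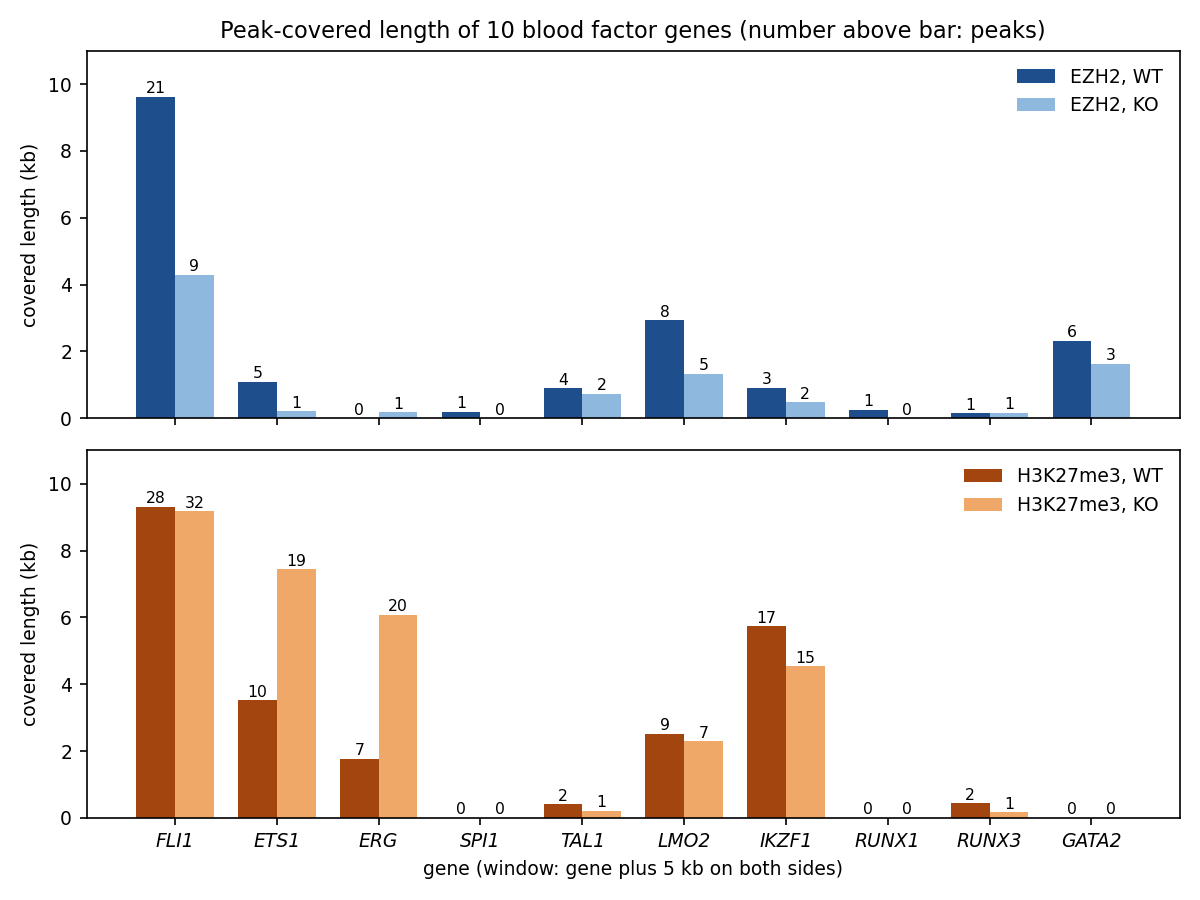
Length covered by peaks in kb for each of the 10 genes (gene plus 5 kb), EZH2 above and H3K27me3 below, WT dark and KO light, with 1 library per bar and the number of peaks above it. FLI1 has the longest bars for EZH2 in both genotypes, and ETS1 and ERG have longer H3K27me3 bars in KO.

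Across the 10 genes, EZH2 was listed at 9 in WT and at 8 in KO, against 26.9% and 18.3% of all protein-coding genes. H3K27me3 peaks were listed at 7 members in WT and at the same 7 in KO (FLI1, ETS1, ERG, TAL1, LMO2, IKZF1 and RUNX3), against 26.0% and 23.1%. Long windows hold more peaks: among the 6153 genes with a window of 46.8 to 187 kb, around the members' median of 93.6 kb, the shares were 37.3% and 23.3% for EZH2 and 32.0% and 26.8% for H3K27me3. The members were chosen with these lists in view, so nothing is read from the gap. With 2 or more peaks required, 5 members remained for EZH2 in KO.

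**Figure D5:**
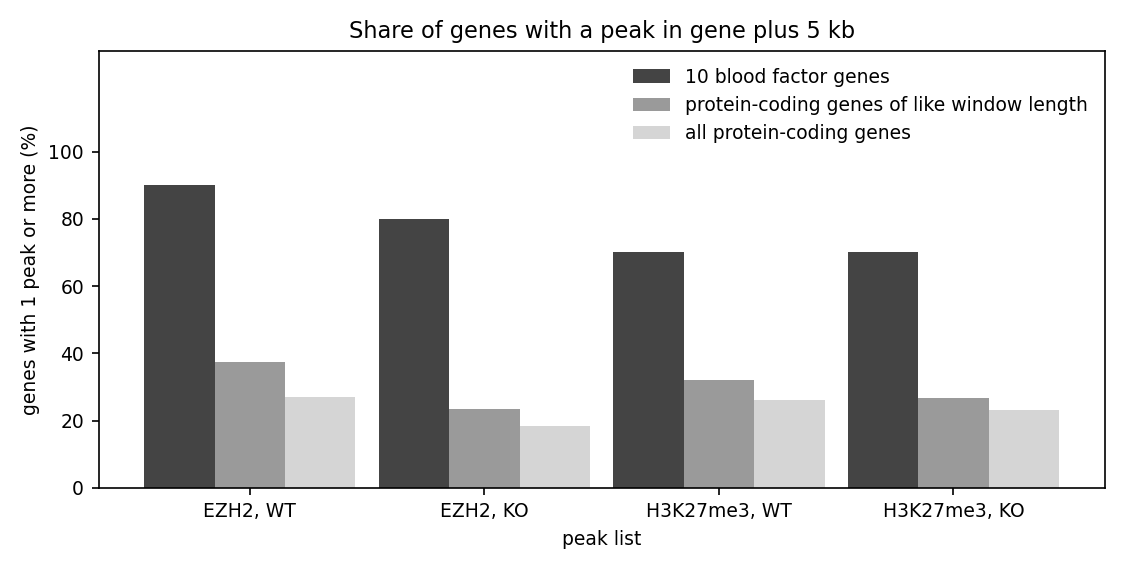
Share of genes in percent with 1 or more peaks in gene plus 5 kb, per peak list, for the 10 genes, for genes of like window length and for all protein-coding genes. The 10 genes reach 90% for EZH2 in WT and 70% for H3K27me3 in both genotypes.

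By covered length, 8 members were lower for EZH2 in KO (FLI1, ETS1, SPI1, TAL1, LMO2, IKZF1, RUNX1 and GATA2) and 2 higher (ERG and RUNX3). Among the 6548 protein-coding genes with an EZH2 peak in either genotype, 67.7% were lower and 32.2% higher, and among those of like window length 69.7% and 30.2%. A KO/WT ratio of 0.5 or less was met by 5 of 10 (FLI1, ETS1, SPI1, LMO2 and RUNX1), near the 55.2% of these genes and the 58.1% of those of like window length. A ratio of 2 or more was met by ERG, which has no WT EZH2 length, and by 22.4% and 21.3% of those genes. These shares were close to the background and are no result about the members. With the WT list cut to the size of the KO list, 5 members were lower. Over all 10 windows the EZH2 length was 18396 bp in WT and 9010 bp in KO (ratio 0.49, and 0.537 without FLI1), compared with 0.706 genome-wide. The median ratio per gene pointed the other way, at 0.454 over the 9 members with a WT peak and 0.0 over the 5397 such genes. Taking only genes with a WT peak favours low ratios. The members were chosen with these lists in view, so nothing is read from this gap.

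For H3K27me3, 5 of the 7 marked members were lower in KO (FLI1, TAL1, LMO2, IKZF1 and RUNX3) and 2 higher (ETS1 and ERG). Among the 6214 genes with an H3K27me3 peak in either genotype, 58.5% were lower and 41.4% higher, and among those of like length 61.8% and 38.2%, so the count of directions is no result about the members. One member, RUNX3, had a ratio of 0.5 or less, against 40.7% of these genes and 43.1% of those of like length. A ratio of 2 or more was found at ETS1 and ERG, against 24.5% and 19.9%. The median ratio over the 7 members was 0.909, and 0.534 over the 5207 genes with a WT peak. The same filter on WT peaks applies, and nothing is read from this gap either. In sum the windows had 23700 bp in WT and 29930 bp in KO (ratio 1.26, and 1.44 without FLI1), compared with 0.732 genome-wide, with 3925 bp more in KO at ETS1 and 4308 bp more at ERG. With the WT list cut to the size of the KO list, 3 of the 7 members were lower and 4 higher. That cut split WT peaks tied at a score of 6, so these counts depend on tie order.

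Wide EZH2 peaks at the members lay mostly at FLI1, the gene chosen for its wide domain. In WT, 14.0% of the 50 member peaks were 500 bp or wider, compared with 3.56% of all WT EZH2 peaks, and in KO 16.7% of 24, compared with 5.40%. Of the 7 wide WT peaks, 4 lay at FLI1, 2 at GATA2 and 1 at LMO2, and of the 4 in KO, 3 lay at FLI1 and 1 at GATA2. Without FLI1 the shares were 10.3% of 29 in WT and 6.67% of 15 in KO, the latter close to the list. For H3K27me3 they were 9.33% of 75 and 10.5% of 95, against 13.4% and 12.8% of the lists. FLI1 alone held 42.0% of the members' WT EZH2 peaks and 52.3% of their length.

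The members' EZH2 peaks overlapped H3K27me3 peaks at a share near that of the lists. Of 50 WT EZH2 peaks, 6 (12%, 4.53 to 24.3) overlapped a WT H3K27me3 peak, against 14.0% (13.6 to 14.4) of the list, and of 24 KO peaks, 4 (16.7%, 4.74 to 37.4), against 19.0% (18.4 to 19.6). The 6 lay at FLI1 (3), ETS1 (2) and IKZF1 (1). Both lists of a genotype share an input, whose part in these overlaps was not tested.

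Other genes of the blood and endothelial programme were counted from 4 lists, beside 10 renal epithelial genes. Of 41 partners and other lineage factors of blood, 23 had EZH2 in WT and 18 in KO, and 22 and 20 had H3K27me3. These are 56.1%, 43.9%, 53.7% and 48.8% of the list, against 26.9%, 18.3%, 26.0% and 23.1% of all protein-coding genes. The list was set with earlier results known and window lengths were not matched, so the gap is not read. IKZF3 (Aiolos), a relative of IKZF1 in lymphocytes, had the most H3K27me3 of these 41 in WT, 42 peaks covering 20912 bp, with 38 covering 18036 bp in KO, and EZH2 lengths of 5161 and 3816 bp. EBF1, a B-cell factor, had 10517 and 10117 bp of H3K27me3. PAX5, which fixes B-cell identity, had 3975 and 5200 bp of EZH2, and GFI1, a repressor of myeloid genes, 571 and 1907 bp. TBX21 and IRF4, factors of T cells and plasma cells, had more H3K27me3 in KO (1242 and 2372 bp, 1832 and 2371 bp). Of these 41 genes, EZH2 length was lower in KO at 16 and higher at 9, and H3K27me3 lower at 18 and higher at 4. Among all protein-coding genes with a peak, 67.7% were lower and 32.2% higher for EZH2, and 58.5% and 41.4% for H3K27me3. The direction counts of this list and those below are not read as results about the lists.

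Of 24 other ETS family genes, 7 had EZH2 in WT and 4 in KO, and 6 had H3K27me3 in each genotype. At 29.2%, 16.7%, 25% and 25%, these shares were near those of all genes and are no result about the family. FEV, the ETS factor of serotonin neurons, had 7 EZH2 peaks in each genotype (3284 and 3631 bp) and H3K27me3 lengths of 326 and 614 bp. ETV7 had 804 bp of EZH2 in WT and none in KO, ELF2 none and 211 bp, and ETV5 none and 598 bp of H3K27me3. The epithelial ETS genes EHF and ELF5 had 1507 and 1632 bp, and 1447 bp and none, of H3K27me3. EZH2 length was lower in KO at 5 of the 24 and higher at 4, and for H3K27me3 at 4 and 5. The shares of all genes with a peak were 67.7% and 32.2% for EZH2, and 58.5% and 41.4% for H3K27me3.

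Of 23 endothelial genes, 12 had EZH2 in WT and 8 in KO, and 11 had H3K27me3 in each genotype, which are 52.2%, 34.8%, 47.8% and 47.8% of the list. The shares of all protein-coding genes were 26.9%, 18.3%, 26.0% and 23.1%. This list too was set with earlier results known, and the gap is not read. VWF, the von Willebrand factor gene, had 30 and 24 H3K27me3 peaks (15980 and 13687 bp) and 2898 and 1373 bp of EZH2. FLT1, a VEGF receptor gene, had no EZH2 in WT and 1350 bp in KO, with 2289 and 1725 bp of H3K27me3. The adhesion gene SELE had 1221 and 3018 bp of H3K27me3 and the angiopoietin receptor gene TEK 193 and 1075 bp. PROX1, of lymphatic endothelium, had 823 and 542 bp of EZH2 and PECAM1 210 and 630 bp. EZH2 was lower in KO at 9 and higher at 5 of the 23, and H3K27me3 at 6 and 7. For all genes with a peak, these shares were 67.7% and 32.2% for EZH2, and 58.5% and 41.4% for H3K27me3.

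Of 32 blood cell genes, 11 had EZH2 in WT and 9 in KO, and 15 and 17 had H3K27me3, which are 34.4%, 28.1%, 46.9% and 53.1% of the list. All protein-coding genes gave 26.9%, 18.3%, 26.0% and 23.1%. The list was set with earlier results known, so nothing is read from the gap. CD34, the stem cell antigen, had 1624 and 599 bp of EZH2, and KIT, the stem cell factor receptor, 1462 and 672 bp with 399 and 956 bp of H3K27me3. CSF1R, the macrophage growth factor receptor, had 4441 and 4093 bp of H3K27me3 and 279 and 745 bp of EZH2, and the integrin gene ITGAM 3466 and 3952 bp of H3K27me3. CD3E, a chain of the T-cell receptor complex, had 302 and 1348 bp of H3K27me3. EZH2 was lower in KO at 7 and higher at 6 of the 32, and H3K27me3 at 9 and 11. Over all genes with a peak, the lower and higher shares were 67.7% and 32.2% (EZH2) and 58.5% and 41.4% (H3K27me3). Of the 10 renal epithelial genes, KRT8 had 1 WT EZH2 peak of 190 bp, and no other peak was listed at any of them. Peak lists do not measure RNA, so they do not show which of these genes ACHN cells express.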

How the data were processed

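Each of the 4 deposited peak lists has 6 columns without a header: chromosome, start, end, name, length in bp and the authors' score, whose meaning they do not state. The length column fits 1-based coordinates with both ends included. The submitters' processing notes name cutadapt 1.9.3, Bowtie2 2.2.4 and hg38. Peak caller, thresholds and depth: not given in the sources used here. Identical lines were counted once, leaving 30734 (EZH2 WT), 19566 (EZH2 KO), 93095 (H3K27me3 WT) and 69840 (H3K27me3 KO) peaks. Samples were grouped by title. The 2 input libraries were not analysed here.

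Gene limits and names came from RefSeq (GRCh38.p14), in which all 10 members and all genes of the lists were found. Peaks overlapping gene plus 5 kb by 1 bp or more were counted, covered bases were clipped to the window, and domains were stitched across 3 kb. Python 3.11.15, NumPy 2.4.6, pandas 2.3.3, SciPy 1.17.1 and matplotlib 3.10.9 were used. The coverage routine was tested on the WT lists with peaks removed. Of 200 genes stripped of peaks among 20037, 200 were found bare for each antibody, an outcome that the removal nearly fixes. A direct count over randomly drawn genes gave 0 mismatches for each antibody. Members, gene lists, named genes (all members, every annotated gene of the interval, 2 per list and direction, the 5 genes nearest to FLI1) and settings were chosen with earlier results of these data known. Alternatives changed the score limit, list size, window, overlap, number of peaks and stitching, and 2 were added after seeing the data. One gene that the naming rule selects is not reported here.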

Additional observations from a re-analysis of the deposited data

Results flagged for a closer look

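A pair of members differed in opposite directions with the 2 antibodies, which was not tested because each value rests on 1 library per genotype. At ETS1 the KO minus WT difference in covered length was -890 bp for EZH2 and 3925 bp for H3K27me3. The EZH2 value rests on 5 narrow WT peaks and 1 KO peak and was -3 bp with the WT list cut to the size of the KO list. RUNX3 had 9 bp more EZH2 length in KO and a KO minus WT difference of -256 bp for H3K27me3, from 1 or 2 peaks in each list.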

How the results depend on the processing

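Of 116 alternative values for counts, lengths and shares, 86 stayed within 1.5 times the reported value (for shares, within its 95% interval) and 30 did not; the cause was not tested beyond what each setting removes. As reported, KO peaks overlapped 18.0% of the members' WT EZH2 peaks and 24.0% of their WT H3K27me3 peaks. The whole lists gave 5.13% and 15.9%, and nothing is read from these gaps. With scores of 7 or more, the FLI1 H3K27me3 length in KO was 1623 bp and the KO EZH2 domain 8909 bp. For EZH2, 1 member was higher and 5 lower in KO, and 5 had a KO peak. The interval held 20 (WT) and 6 (KO) EZH2 and 49 and 19 H3K27me3 peaks. Of the members' KO EZH2 peaks, 0% lay on H3K27me3, and 2.08% of their WT H3K27me3 peaks were shared. That limit keeps 28.6% of all KO H3K27me3 peaks, so a lower share is built into it. With WT lists cut to the size of the KO lists, 4 members were higher and 3 lower for H3K27me3, 5 lower for EZH2, and the interval held 20 WT EZH2 peaks. The H3K27me3 counts depend on the order of WT peaks tied at a score of 6. With gene plus 20 kb, 4 members were higher for H3K27me3. With 2 peaks required, 5 had EZH2 in KO. With 50% overlap, 4% of WT EZH2 peaks lay on H3K27me3, and 8% of EZH2 and 10.7% of H3K27me3 WT peaks were shared. Stitching across 1 kb gave FLI1 domains of 3714 bp (WT) and 2053 bp (KO), and across 12 kb 48134 and 32347 bp. Windows of 5 kb around both gene ends, added later, gave FLI1 lengths of 2156 (WT) and 1568 bp (KO) for EZH2 and 2233 and 1089 bp for H3K27me3, 5 members with EZH2 in KO and 9.52% of WT H3K27me3 peaks shared. Leaving out FLI1, also added later, kept all 12 values within the limit. The counts of members among them change by at most 1 and could not leave it. Some of the 86 values within the limit could not move either, such as KO lengths when only the WT lists were cut.

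KO minus WT turned in direction in 9 single-gene values: TAL1 EZH2 (168 bp with scores of 7 or more, 482 bp with cut lists, 20 bp with 20 kb) and H3K27me3 (5 bp without flanks), FLI1 and IKZF1 H3K27me3 (117 and 106 bp with cut lists), IKZF1 and LMO2 EZH2 (54 and 3 bp around gene ends) and RUNX3 H3K27me3 (686 bp with 20 kb). With cut lists, the H3K27me3 turn at IKZF1 depends on the order of tied WT peaks. The turn at FLI1 does not. Its WT length is 9061 bp with the tied peaks and 7644 bp without them, below the 9178 bp of KO. Unknown depth and 1 library per group limit every comparison. No paired analysis was possible because each group has 1 library.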
